A study of Capra hircus with 3 samples.

Results

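The cells described here are vascular endothelial cells of goat liver, the blood-vessel lining outside the sinusoids, chosen by VWF, TLL1 and MECOM. Barcodes were taken when they held at least 3 UMIs (unique molecular identifiers, each standing for 1 captured transcript) of VWF, TLL1 and MECOM together, when that sum was at least as large as the sum of STAB2, BMPER, KDR and PTPRB or STAB2 and BMPER were both at 0, and when FLT1 or PTPRB was seen at least once. Their VWF, TLL1, MECOM and FLT1 sum also had to exceed that of the hepatocyte genes CPS1 and ABCB11, and MSR1, PKHD1 and THEMIS had to be at 0. This gave 304 members of 25591 barcodes, with 137 in the NASH-T library, 79 in NASH and 88 in Con. VWF was seen in 96.35% of NASH-T members, 84.81% of NASH members and 87.5% of Con members. The members are called VWF-positive below as a group, although not every member held a VWF UMI. Because the measured counts of these 13 genes chose the members, their levels are given as a description.

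The livers came from female Capra hircus goats aged 3 to 4 years. NASH-T goats received the diet labelled HRDS and are described as tolerant of steatohepatitis, NASH goats received the same HRDS diet and have steatohepatitis, and Con goats received the diet labelled LRDS and are described as healthy. Livers of 5 goats were mixed into 1 library per group, dissociated with trypsin and DNase I, and read as single-cell polyA RNA on the 10x platform. No group has a second library, so goat-to-goat spread is unknown, no test between groups can be made, and diet, pool, dissociation and library cannot be told apart. All intervals below are 95% intervals for counting error only.

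Endothelial cells line every vessel, but the liver's lining is split between specialised beds. Arteries, portal veins and central veins carry a continuous endothelium that stores von Willebrand factor, a multimeric clotting protein, in Weibel-Palade bodies and releases it to tether platelets. The sinusoids, the exchange vessels between the plates of hepatocytes, are lined by a fenestrated scavenger endothelium with receptors such as STAB2, LYVE1 and the CLEC4 lectins, and they are known for making factor VIII. Central veins are also the known source of the Wnt ligands and R-spondin that pattern the lobule.

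The libraries held 9375 barcodes and 29572158 UMIs for NASH-T, 8731 barcodes and 31195014 UMIs for NASH, and 7485 barcodes and 25506238 UMIs for Con. Between 20 and 23 barcode sequences were shared by each pair of libraries. No shared barcode was a member in both libraries, and 1 NASH-T or Con member had a barcode that was also in the other of these libraries. Members summed to 313477 UMIs in NASH-T, 149141 in NASH and 172436 in Con, with medians of 1911, 1532 and 1731 UMIs per barcode in NASH-T, NASH and Con. A doublet caller marked 5 members in NASH-T, 2 in NASH and 0 in Con. The ribosomal protein genes' share of members' UMIs was 0.722% in NASH-T, 0.400% in NASH and 0.311% in Con, and its part in the differences below was not tested.

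Among the genes of the rule, VWF stood at 2705 CPM (counts for each 1000000 UMIs of the members) in NASH-T, 1784 CPM in NASH and 2563 CPM in Con. TLL1, a metalloprotease that cleaves the BMP antagonist chordin, had 1353 CPM in NASH-T, 1200 CPM in NASH and 1838 CPM in Con. MECOM, a zinc-finger transcription factor, had 1640 CPM in NASH-T, 2380 CPM in NASH and 2117 CPM in Con. FLT1, a VEGF receptor, had 1908 CPM in NASH-T, 1965 CPM in NASH and 1432 CPM in Con. VWF was thus lowest and MECOM highest in NASH, while FLT1 was lowest in Con. All of VWF, TLL1 and MECOM were seen in 61 of the 137 NASH-T members, 33 of the 79 NASH members and 40 of the 88 Con members. Members just inside the threshold, with a sum of 3, numbered 14 in NASH-T, 9 in NASH and 6 in Con and held 483.9 CPM of HMCN1 in NASH-T, 1263 CPM in NASH and 2752 CPM in Con. Barcodes just outside it, with a sum of 2, numbered 15 in NASH-T, 7 in NASH and 9 in Con and held 778.9, 0 and 2498 CPM of HMCN1 in NASH-T, NASH and Con.

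Genes outside the rule are given next. HMCN1, hemicentin-1, a large extracellular matrix protein, was given as a marker of these cells with earlier results of these data known. Its level is therefore a description and not a check of the label. HMCN1 reached 3302 CPM in NASH-T members, 2508 CPM in NASH members and 3781 CPM in Con members. It was seen in 65.7% of NASH-T members, 64.6% of NASH members and 71.6% of Con members, against 0.672%, 1.12% and 0.788% of T-cell-type barcodes of the NASH-T, NASH and Con libraries (median depths of 1373, 1192 and 1300 UMIs). The share in T-cell-type barcodes, defined by at least 2 UMIs of THEMIS, stands for transcripts free in the droplets. HMCN1 in members was thus far above that background. Members, which held 1.06% of all UMIs in NASH-T, 0.478% in NASH and 0.676% in Con, held 64.4% of the HMCN1 UMIs in NASH-T, 46.5% in NASH and 72.1% in Con. Of the VWF UMIs they held 43.7% in NASH-T, 30.9% in NASH and 55.1% in Con. Most VWF UMIs of NASH-T and NASH thus lay outside the members. The shares for NASH-T, NASH and Con were 68.8%, 45.3% and 62.8% for TLL1 and 42.0%, 38.6% and 44.6% for MECOM.

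Genes shared by all endothelium were present. PECAM1, a junctional adhesion molecule, had 1266 CPM in NASH-T members, 1247 CPM in NASH members and 1467 CPM in Con members. EMCN, a sialomucin of venous and capillary lining, had 1215 CPM in NASH-T, 1529 CPM in NASH and 1160 CPM in Con. Of 19 pan-endothelial genes outside the rule, 18 were seen in NASH-T members, 17 in NASH members and 17 in Con members, and their sum was 10964 CPM in NASH-T members, 12579 CPM in NASH members and 11819 CPM in Con members. Over all non-members the same sum was 1111.5 CPM in NASH-T, 683 CPM in NASH and 679 CPM in Con. Lymphatic endothelium shares several markers with these cells. Of 14 lymphatic genes, 10 were seen in NASH-T members, 9 in NASH members and 10 in Con members, and they summed to 1821.5 CPM in NASH-T members, 1099.6 CPM in NASH members and 1397.6 CPM in Con members, against 903 CPM, 757 CPM and 669 CPM over non-members of NASH-T, NASH and Con. Its defining genes PDPN, CCL21 and FOXC2 were at 0 in members of all 3 libraries. PROX1, the lymphatic master regulator that hepatocytes also express, had 70.2 CPM in NASH-T members, 33.5 CPM in NASH members and 46.4 CPM in Con members, below its 373, 376 and 303 CPM over non-members of NASH-T, NASH and Con. Members held 81.8% of the UMIs of NTS, neurotensin, in NASH-T, 66.7% in NASH and 83.8% in Con. The largest part of the lymphatic sums in members was PKHD1L1, whose levels are given below. Without PKHD1L1 the lymphatic list summed to less in members than over non-members in each library. Members thus carried general endothelial genes and some genes of the lymphatic list, chiefly PKHD1L1, without PDPN, CCL21 or FOXC2.

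**Figure D1:**
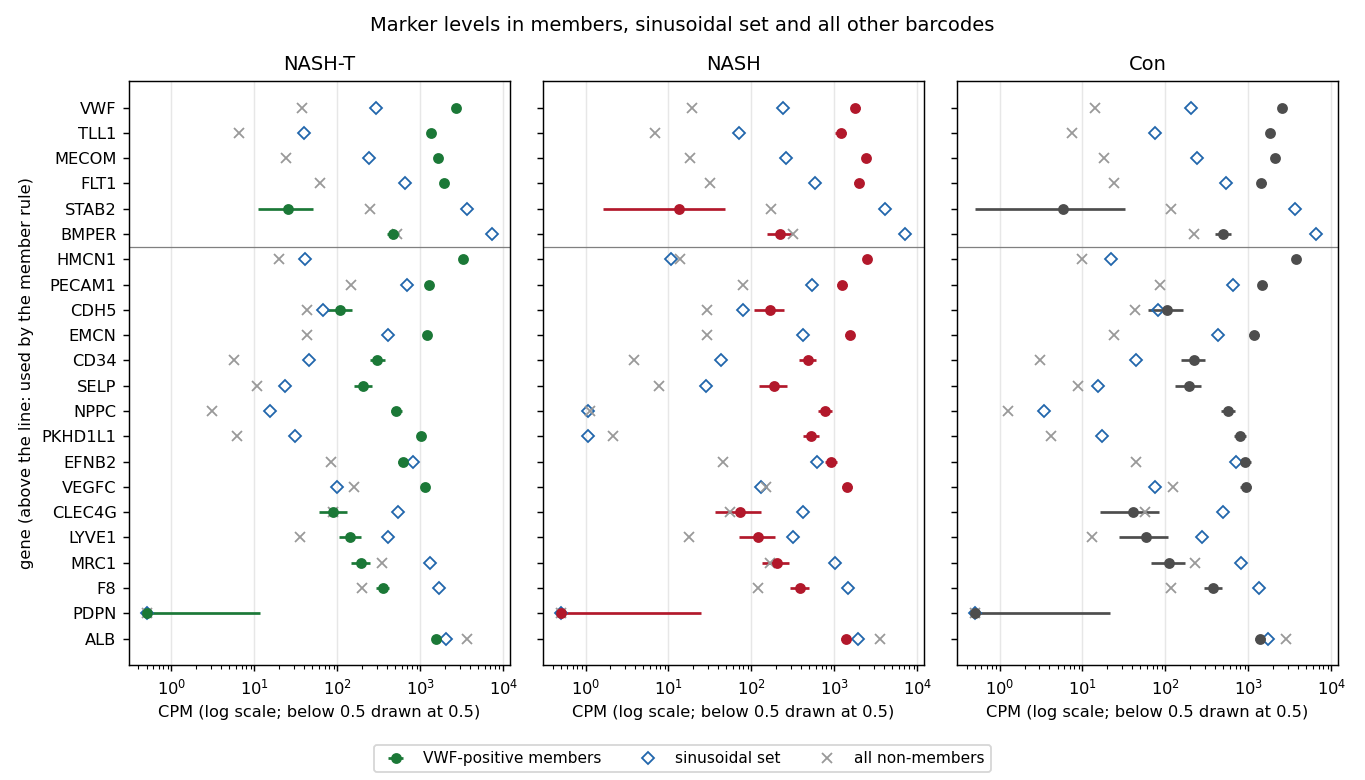
Level of each gene in CPM (log scale, values below 0.5 drawn at 0.5) in the 3 libraries; filled circles are the VWF-positive members with their Poisson intervals, open diamonds the sinusoidal set and crosses all non-members. HMCN1 sits at 2508 to 3781 CPM in members and at 10.6 to 41.0 CPM in the sinusoidal set, while CLEC4G, LYVE1, MRC1 and F8 run the other way.

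Some RNA of other cell types was present. ALB, the hepatocyte's albumin, was seen in 92.0% of NASH-T members, 91.1% of NASH members and 92.0% of Con members, close to its 94.6%, 89.4% and 89.6% in T-cell-type barcodes of NASH-T, NASH and Con, so it was read as background. The hepatocyte list without rule genes summed to 3072 CPM in NASH-T members, 2716 CPM in NASH members and 2616 CPM in Con members. Macrophage markers without rule genes summed to 274 CPM in NASH-T, 215 CPM in NASH and 226 CPM in Con. Cholangiocyte markers KRT7, KRT19 and EPCAM, stellate markers RGS5, NGFR and COL1A1, and platelet genes GP1BB, GP5 and PPBP were at 0 in members of every library. The whole platelet list, which includes SELP, was nonetheless above its level over non-members. It summed to 278 CPM in NASH-T members, 255 CPM in NASH members and 249 CPM in Con members, against 33.1, 24.9 and 27.0 CPM over non-members. T and NK cell markers without rule genes summed to 105 CPM in NASH-T, 46.9 CPM in NASH and 23.2 CPM in Con, against 631, 363 and 545 CPM over non-members of NASH-T, NASH and Con. The stellate list summed to 2329 CPM in NASH-T, 1904 CPM in NASH and 1838 CPM in Con, most of it from the collagen gene COL14A1, which the sinusoidal sets also held. Over non-members the stellate list summed to 781 CPM in NASH-T, 662 CPM in NASH and 590 CPM in Con. The part of this RNA in the results below was not tested.

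To set the members beside the liver's own specialised endothelium, a sinusoidal set was taken in the same libraries as barcodes with at least 3 UMIs of STAB2 and BMPER together and more of them than of VWF, TLL1 and MECOM. It held 735 barcodes in NASH-T, 442 in NASH and 222 in Con. A gene was counted when its ratio of members over the sinusoidal set was past 2-fold in the same direction, with its interval excluding 1, in each of the 3 libraries. Of 5521 genes measured, 192 (3.48%) were higher in members and 332 (6.01%) were lower. Cells share a pool and a handling within each library, so this comparison does not cross libraries.

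Of the 12 genes named as higher, HMCN1, NPPC, SULF1 and NTN4 encode proteins outside the cell. HMCN1 was 80.6-fold higher in members than in the sinusoidal set in NASH-T (62.9 to 105), 236-fold higher in NASH (127 to 496) and 169-fold higher in Con (98.4 to 320). NTN4, netrin-4 of the vascular basement membrane, was 12.4-fold higher in NASH-T (8.77 to 17.9), 13.8-fold higher in NASH (8.61 to 22.6) and 17.8-fold higher in Con (10.8 to 30.8). SULF1, which removes sulphate groups from heparan sulphate outside the cell, had 175 CPM in NASH-T members, 161 CPM in NASH members and 168 CPM in Con members, against 4.89, 12.7 and 10.3 CPM in the sinusoidal sets of NASH-T, NASH and Con. NPPC, the precursor of the vasodilator C-type natriuretic peptide, had 513.6 CPM in NASH-T members, 771 CPM in NASH members and 568 CPM in Con members. In the sinusoidal sets NPPC stood at 15.3 CPM in NASH-T, 1.06 CPM in NASH and 3.43 CPM in Con, so all 3 libraries separated the sets widely. Members held 64.1% of the NPPC UMIs of the NASH-T library, 76.7% of NASH and 75.4% of Con.

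Membrane and intracellular genes followed the same direction. PKHD1L1, a large membrane protein of the fibrocystin family, had 1024 CPM in NASH-T members, 530 CPM in NASH members and 795 CPM in Con members, against 31.2, 1.06 and 17.2 CPM in the sinusoidal sets of NASH-T, NASH and Con. TRHDE, the ectoenzyme that degrades thyrotropin-releasing hormone, was 21.6-fold higher in NASH-T, 15.6-fold higher in NASH and 29.2-fold higher in Con. BNC2, a zinc-finger protein, was 18.2-fold higher in NASH-T, 17.9-fold higher in NASH and 21.7-fold higher in Con, the narrowest spread among the 12 genes named as higher. PPP1R16B, an endothelial regulatory subunit of protein phosphatase 1, was 13.7-fold higher in NASH-T, 21.6-fold higher in NASH and 20.3-fold higher in Con. SAMD5, RASSF9, EPB41L4A and MCTP1 completed the 12, with ratios of at least 11.8 in each library.

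The genes named as lower had few UMIs in members. SLC39A8, a metal ion transporter, had 15.9 CPM in NASH-T members, 20.1 CPM in NASH members and 11.6 CPM in Con members, against 271, 291 and 271 CPM in the sinusoidal sets of NASH-T, NASH and Con. ADM, the vasoactive peptide adrenomedullin, had 3 UMIs in NASH-T members, 4 in NASH members and 1 in Con members. EDA, ectodysplasin, a ligand of the tumour necrosis factor family, had 0 UMIs in NASH-T members, 1 in NASH members and 0 in Con members, while the sinusoidal sets held 175, 167 and 134 CPM in NASH-T, NASH and Con. With 3 counts put in place of 0, EDA was 18.3-fold lower in NASH-T members and 7.70-fold lower in Con members. Its counting intervals reached up to 0.0677 of the sinusoidal level in NASH-T and 0.164 in Con. TRPM3, a cation channel, and RAP1GAP2, CCDC175, PPP1R14C, FCHO1, MYO7A, LRRC39 and DENND2A were also among them.

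**Figure D2:**
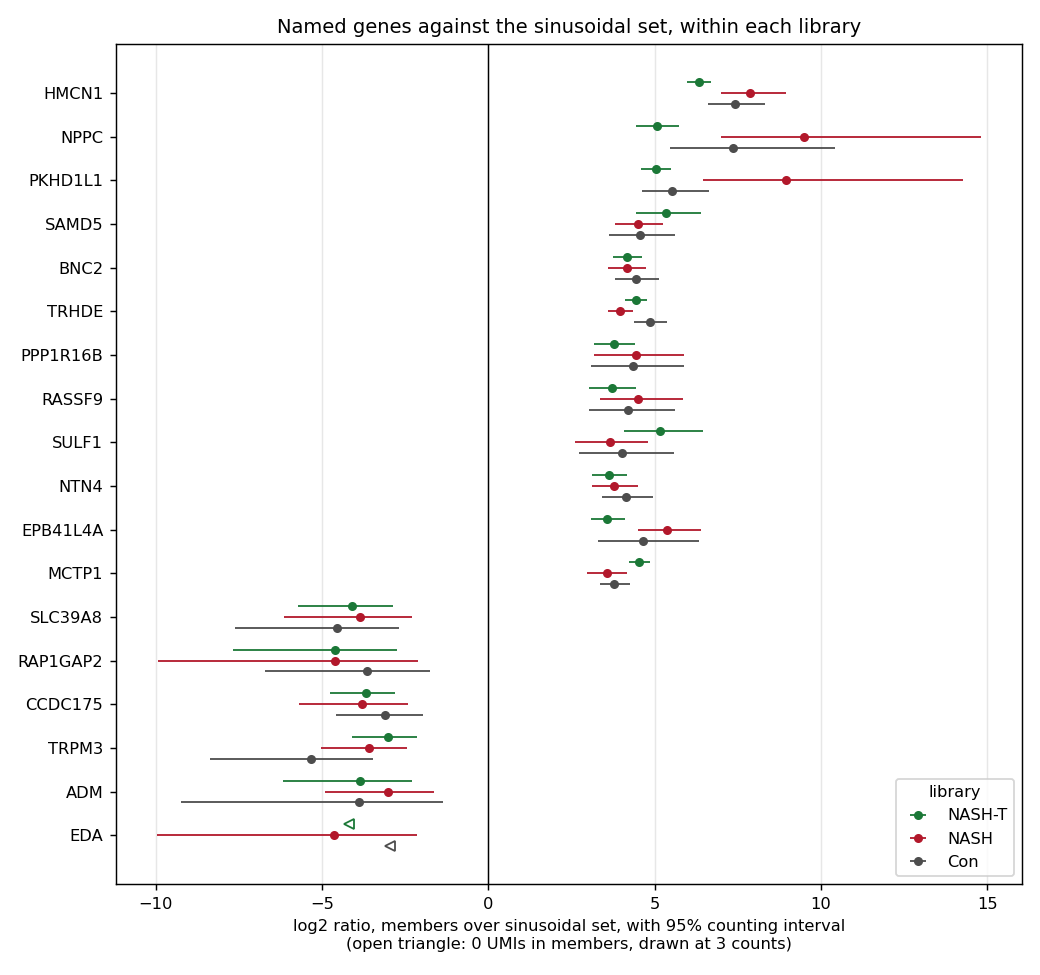
Log2 ratio of members over the sinusoidal set for the 12 genes named as higher and the first 6 named as lower, 1 symbol per library with its interval; open triangles mark 0 UMIs in members, drawn at 3 counts. All symbols of a gene lie on the same side of 0, from HMCN1 at the high end to genes such as SLC39A8 and TRPM3 at the low end.

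The gene lists were counted at 1.5-fold in all 3 libraries, where 5.14% of all measured genes were higher, 7.99% were lower and the median log2 ratio was -0.033. Sinusoidal markers were low in members: 10 of 15 measured were lower, the median log2 ratio was -2.08, and only NTN4 was higher. LYVE1, a hyaluronan receptor, had 144 CPM in NASH-T members, 121 CPM in NASH members and 58.0 CPM in Con members, against 409, 321 and 275 CPM in the sinusoidal sets of NASH-T, NASH and Con. CLEC4G, a lectin of the sinusoid, had 89.3 CPM in NASH-T members, 73.8 CPM in NASH members and 40.6 CPM in Con members, against 532, 415 and 495 CPM in the sinusoidal sets. Both genes were thus low in members of each library, and CLEC4G in NASH-T members stood near its level over all non-members of that library, 89.2 CPM.

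Arterial and venous genes were both higher in members. Of 6 measured arterial genes, 4 were higher, none was lower and the median log2 ratio was 2.30. JAG1, a Notch ligand of arteries, had 364 CPM in NASH-T members, 355 CPM in NASH members and 493 CPM in Con members, against 75.2, 71.2 and 103 CPM in the sinusoidal sets. BMX, a tyrosine kinase of arterial lining, had 163 CPM in NASH-T, 141 CPM in NASH and 249 CPM in Con, and 10.4 CPM or less in each sinusoidal set. VEGFC, a growth factor for lymphatic vessels, was 11.3-fold higher in NASH-T, 10.9-fold higher in NASH and 12.3-fold higher in Con. SOX17 and HEY1, transcription factors of arteries, were at 0 in members of all 3 libraries, and EFNB2, the arterial ephrin, was not counted, with 622 CPM in NASH-T members, 912 CPM in NASH members and 922 CPM in Con members against 815, 611 and 718 CPM in the sinusoidal sets. The arterial list was therefore higher only in part.

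On the venous list, 5 of 11 measured genes were higher, none was lower and the median log2 ratio was 0.73. SELP, P-selectin, which is stored with VWF and captures leukocytes, had 204 CPM in NASH-T members, 188 CPM in NASH members and 191 CPM in Con members, against 23.2, 28.7 and 15.5 CPM in the sinusoidal sets. ADGRG6, an adhesion receptor, had 1407 CPM in NASH-T members, 892 CPM in NASH members and 1386 CPM in Con members, against 91.7, 150 and 142 CPM in the sinusoidal sets of NASH-T, NASH and Con. PLVAP, which forms the diaphragms of endothelial openings, was 2.38-fold higher in NASH-T, 3.61-fold higher in NASH and 3.43-fold higher in Con. These levels were close across the 3 libraries except for ADGRG6, which was lowest in NASH.

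Clotting genes split by vessel bed. TFPI, the inhibitor of the tissue factor pathway, was the higher gene of 8 measured, at 188 CPM in NASH-T members, 121 CPM in NASH members and 220 CPM in Con members, against 47.1, 49.9 and 101 CPM in the sinusoidal sets. F8, factor VIII, was lower, with 351 CPM in NASH-T members, 382 CPM in NASH members and 377 CPM in Con members, against 1698, 1471 and 1350 CPM in the sinusoidal sets of NASH-T, NASH and Con. PROS1, protein S, and F5 were also lower in members, and the list's median log2 ratio was -1.05. F8, whose protein travels in plasma bound to VWF, was thus higher in the other endothelial set in each library. On the list of Weibel-Palade body genes outside the rule, 2 of 8 were higher, SELP and MYRIP, an adaptor that holds the bodies at the cell's actin.

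Signalling lists showed a small number of counted genes each. In the VEGF list 2 of 12 were higher, VEGFC and PIK3R3, and 3 were lower, the receptors FLT4, NRP1 and NRP2. NRP1, a co-receptor for VEGF and semaphorins, had 357 CPM in NASH-T members, 489 CPM in NASH members and 551 CPM in Con members, against 2643, 2452 and 2559 CPM in the sinusoidal sets. In the Notch list 2 of 9 were higher, JAG1 and the sheddase ADAM10. In the BMP and TGF-beta list 2 of 23 were higher, the latent TGF-beta binding protein LTBP1 and the receptor TGFBR2, and in the Wnt list 3 of 15, TSPAN12, RECK and ADGRA2, co-receptors for Wnt or Norrin ligands. No gene of the last 3 lists was lower, and their median log2 ratios were 0.55 for Notch, 0.17 for BMP and TGF-beta and 0.22 for Wnt.

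Flow-responsive genes were among the higher lists, while vasoactive and growth factor genes went both ways. Of 8 flow-responsive genes 3 were higher, and the median log2 ratio was 0.73. KLF2, the transcription factor that blood flow induces, had 632 CPM in NASH-T members, 530 CPM in NASH members and 447 CPM in Con members, against 381, 227 and 211 CPM in the sinusoidal sets. NOS3, endothelial nitric oxide synthase, had 23 UMIs in NASH-T members, 14 in NASH members and 10 in Con members, or 2.50-fold, 6.31-fold and 3.07-fold the sinusoidal level in NASH-T, NASH and Con. Among 17 vasoactive and growth factor genes 6 were higher and 4 lower (IGF1, CCN2, ADM and NPR3), with a median log2 ratio of 0.63. EDNRB, an endothelin receptor, was 5.16-fold higher in NASH-T, 10.8-fold higher in NASH and 5.34-fold higher in Con. Leukocyte adhesion genes had 4 of 11 higher (SELP, PECAM1, CD34 and ALCAM) and none lower.

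Matrix, transcription factor and stress lists differed in shape. Of 11 basement membrane and elastic fibre genes, HSPG2, HMCN1 and FN1 were higher and COL4A1, LAMA4 and NID1 lower. LAMA4, a laminin chain, had 150 CPM in NASH-T members, 67.0 CPM in NASH members and 139 CPM in Con members, against 688, 720 and 629 CPM in the sinusoidal sets. Of 28 transcription factors, FLI1, GATA6, KLF2, FOXP1, MEF2C and MEIS1 were higher and ETS1 and MAF lower. MAF, a factor of the sinusoidal programme, had 424 CPM in NASH-T members, 362 CPM in NASH members and 319 CPM in Con members, against 1605, 1260 and 1194 CPM in the sinusoidal sets. Of 10 immediate early and heat shock genes, FOS, NR4A1, DUSP1 and HSP90AA1 were higher and none was lower. FOS, a subunit of the AP-1 transcription factor, had 405 CPM in NASH-T members, 362 CPM in NASH members and 389 CPM in Con members, against 97.2, 26.6 and 39.5 CPM in the sinusoidal sets. None of 16 interferon-stimulated genes was counted in either direction.

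The members were not uniform. HMCN1, which the rule did not use, was seen in 90 NASH-T members, 51 NASH members and 63 Con members, or 65.7% of NASH-T members (57.1 to 73.6), 64.6% of NASH members (53.0 to 75.0) and 71.6% of Con members (61.0 to 80.7). It was at 0 in 47 NASH-T members, 28 NASH members and 25 Con members. The split by HMCN1 was chosen after its values were seen, and a gene was counted when past 2-fold with its interval excluding 1 in each library. Of 1630 genes measured, 33 (2.02%) were higher and 30 (1.84%) were lower in HMCN1-positive members. HMCN1-positive members had median depths of 1961.5 UMIs in NASH-T, 1615 in NASH and 1879 in Con, and HMCN1-negative members 1852, 1429 and 1658 UMIs in NASH-T, NASH and Con.

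VWF itself did not follow the split in the same way in each library. It had 2754 CPM in HMCN1-positive and 2605 CPM in HMCN1-negative members of NASH-T, 1867 CPM in positive and 1644 CPM in negative members of NASH, and 2234 CPM in positive and 3387 CPM in negative members of Con. Among the 33 genes higher on the HMCN1-positive side, FN1, LTBP1 and ADAMTS5, picked after their values were seen, act in the matrix. FN1, fibronectin, had 1386 CPM in positive and 68.0 CPM in negative members of NASH-T, 279 and 53.6 CPM in those of NASH, and 812 and 60.8 CPM in those of Con. LTBP1 was 12.3-fold higher in NASH-T (5.84 to 31.0), 5.46-fold higher in NASH (2.84 to 11.8) and 16.2-fold higher in Con (5.40 to 79.4). The aggrecan-cleaving protease ADAMTS5 was 23.2-fold higher in NASH-T, 4.86-fold higher in NASH and 33.6-fold higher in Con, the last against 1 UMI in HMCN1-negative members. NTN4, NPPC, TRHDE, MEIS1 and EFNB2 were on the same side, with ratios from 2.40 to 13.2 over the 3 libraries.

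Genes known from veins did not all take the same side. ACKR1, the atypical chemokine receptor of venules, had 180 CPM in positive and 1128 CPM in negative members of NASH-T, 107 and 822 CPM in those of NASH, and 40.6 and 406 CPM in those of Con. ENG, a TGF-beta co-receptor, had 0.211 of the HMCN1-negative level in NASH-T, 0.293 in NASH and 0.387 in Con. RSPO3, the R-spondin of the central vein, had 8 UMIs in positive and 27 in negative members of NASH-T, 4 and 14 in those of NASH, and 2 and 23 in those of Con. WNT2, a Wnt ligand of the central vein list, had 4 UMIs in positive and 12 in negative members of NASH-T, 1 and 15 in those of NASH, and 1 and 12 in those of Con. At least 1 UMI of RSPO3 or WNT2 was seen in 5 positive and 14 negative members of NASH-T, 3 positive and 11 negative members of NASH, and 1 positive and 12 negative members of Con. Of the 10 central vein genes, WNT9B, RSPO1 and THBD were at 0 in members of all 3 libraries. Of the 5 measured, only SELP was higher at 1.5-fold than in the sinusoidal set, and none was lower. RSPO3 and WNT2 are below the count limit of the split's list and were picked by their known place. In contrast, ADGRG6, of the venous list, was 6.04-fold higher in HMCN1-positive members in NASH-T (4.23 to 8.89) and 6.96-fold higher in Con (3.99 to 13.3), with a ratio of 1.14 in NASH (0.785 to 1.66). SELP had ratios of 0.714 in NASH-T (0.422 to 1.22), 0.520 in NASH (0.228 to 1.17) and 1.07 in Con (0.479 to 2.61).

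Further genes separated the HMCN1-negative members. SAMD5, named above as higher than in the sinusoidal set, had 38.0 CPM in positive and 758 CPM in negative members of NASH-T, 172 and 1126 CPM in those of NASH, and 65.0 and 1399 CPM in those of Con. CLEC9A and LYVE1, of the sinusoidal list, were also on the negative side. LYVE1 had 2 UMIs in positive and 43 in negative members of NASH-T, 0 and 18 in those of NASH, and 1 and 9 in those of Con. Other genes of that list, NTN4 and the rule gene BMPER, stood higher in HMCN1-positive members. The BMPER ratio was 3.50 in NASH-T (2.13 to 6.09), 2.23 in NASH (0.943 to 6.08) and 2.44 in Con (1.31 to 4.93). EMCN had 1016 CPM in positive and 1623 CPM in negative members of NASH-T, 998 and 2413 CPM in those of NASH, and 942 and 1704 CPM in those of Con. PECAM1 differed less, with ratios of positive over negative of 1.20 in NASH-T (0.961 to 1.5), 1.39 in NASH (1.01 to 1.94) and 1.18 in Con (0.886 to 1.60).

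**Figure D3:**
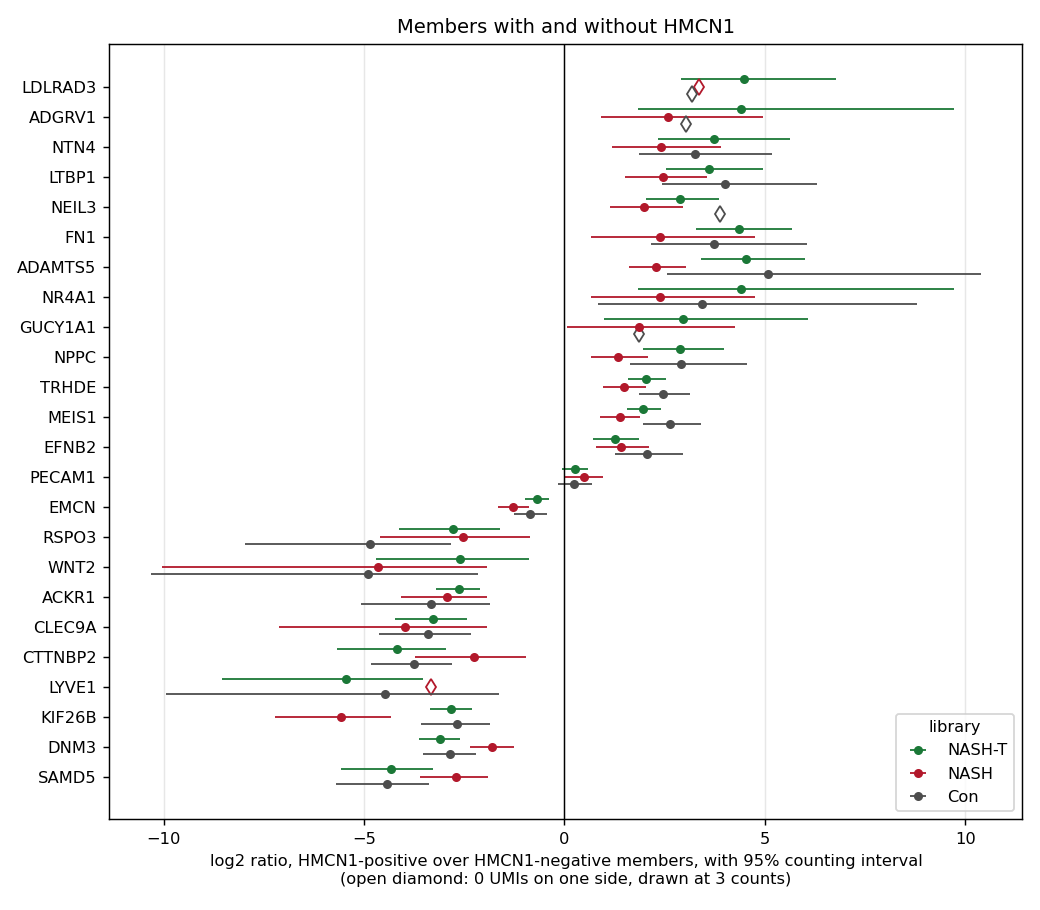
Log2 ratio of HMCN1-positive over HMCN1-negative members for 24 genes, 1 symbol per library with its interval; open diamonds mark 0 UMIs on 1 side, drawn at 3 counts. FN1, LTBP1 and ADAMTS5 lie to the right of 0 and ACKR1, SAMD5 and LYVE1 to the left in all 3 libraries.

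Members made up 1.46% of NASH-T barcodes (1.23 to 1.73), 0.905% of NASH barcodes (0.717 to 1.13) and 1.18% of Con barcodes (0.944 to 1.45). The share was 1.24-fold that of Con in NASH-T (0.944 to 1.64) and 0.770 of that of Con in NASH (0.561 to 1.05), and both intervals include 1. NASH-T over NASH was 1.62 (1.22 to 2.16). With every barcode thinned to 1000 UMIs and shallower ones left out (17 members of NASH-T, 14 of NASH and 11 of Con), the shares were 1.21% in NASH-T, 0.786% in NASH and 1.07% in Con, in the same order. When only members with no STAB2 or BMPER were kept, they were 0.832% in NASH-T, 0.676% in NASH and 0.668% in Con, and NASH-T over NASH was 1.23 (0.867 to 1.76).

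The sinusoidal set had another order over the libraries. It made up 7.84% of NASH-T barcodes (7.30 to 8.40), 5.06% of NASH barcodes (4.61 to 5.54) and 2.97% of Con barcodes (2.59 to 3.38). Members were 15.7% of both sets together in NASH-T (13.4 to 18.3), 15.2% in NASH (12.2 to 18.5) and 28.4% in Con (23.4 to 33.8). That share was 0.553 of the Con share in NASH-T (0.420 to 0.732) and 0.534 in NASH (0.389 to 0.732), and NASH-T over NASH was 1.04 (0.780 to 1.38). Dissociation and cell capture set such shares too and cannot be told apart from diet here.

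**Figure D4:**
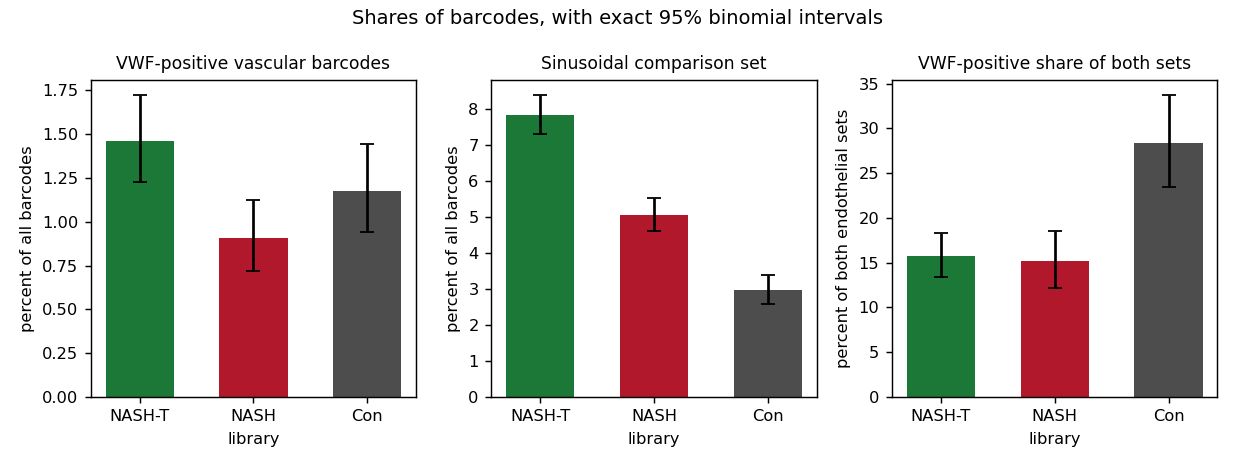
Bars give members as a percent of all barcodes, the sinusoidal set as a percent of all barcodes, and members as a percent of both sets, by library with exact binomial intervals. The last share is 15.7% in NASH-T and 15.2% in NASH, against 28.4% in Con.

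Between libraries, genes with at least 20 UMIs over both members' sums were measured and counted past 2-fold with the interval excluding 1. For NASH-T over Con, 209 of 4292 genes were higher (4.87%) and 143 lower (3.33%). For NASH over Con, 111 of 3360 were higher (3.3%) and 125 lower (3.72%). For NASH-T over NASH, 199 of 4162 were higher (4.78%) and 118 lower (2.84%). All 3 pairs reuse the same libraries, so no overlap between them is given, and each gene's level is set out in all libraries. The genes named first are those with the 8 largest ratios per direction among genes of at least 30 UMIs whose level in the higher library was at least 1.5-fold that over non-members. Of 137 named ratios whose interval excluded 1, 55 had an interval that included 1 when barcodes were thinned to 1000 UMIs, and 50 of the 131 that could be computed did so in HMCN1-positive members alone.

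In NASH-T over Con, chemokine-binding and endothelial secreted genes were among the higher. CLEC3B, tetranectin, a plasminogen-binding protein, had 507 CPM in NASH-T members, 268 CPM in NASH members and 104 CPM in Con members, 4.86-fold higher in NASH-T than in Con (2.98 to 8.41), and 2.70-fold (1.46 to 5.36) in HMCN1-positive members alone. ACKR1 had 491 CPM in NASH-T members, 375 CPM in NASH members and 145 CPM in Con members, 3.39-fold higher in NASH-T than in Con (2.21 to 5.40). It was seen in 52 NASH-T members, 19 NASH members and 13 Con members, and its ratio in the sinusoidal sets was 2.13 (1.58 to 2.92). DNASE1L3, a secreted DNase that sinusoidal lining also makes, had 33 UMIs in NASH-T members, 26 in NASH members and 1 in Con members, a ratio of 18.2 for NASH-T over Con (3.04 to 738). MARCKS, an actin-regulating substrate of protein kinase C, was 7.70-fold higher in NASH-T than in Con (1.94 to 66.7). HMCN1-positive members of Con held 0 UMIs of either gene. With 3 counts in their place the ratio among HMCN1-positive members was 1.36 for DNASE1L3, with a lower counting limit of 0.843. For MARCKS it was 1.17, with a lower limit of 0.688. In the sinusoidal sets the NASH-T over Con ratio was 1.69 for CLEC3B (1.39 to 2.09), 1.37 for DNASE1L3 (1.04 to 1.83) and 1.73 for MARCKS (1.19 to 2.58). ADGRD1, ELL, HERPUD2 and KDM3B completed the 8, with ratios from 3.47 to 6.42 and sinusoidal intervals that included 1.

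BMP6, the endothelial ligand that sets hepatic iron sensing, led the genes lower in NASH-T than in Con. It had 41.5 CPM in NASH-T members, 67.0 CPM in NASH members and 255 CPM in Con members, and the NASH-T level was 0.163 of that of Con (0.0803 to 0.307). One Con member barcode held 21 of the 44 BMP6 UMIs of Con, and in the sinusoidal sets the ratio was 1.02 (0.862 to 1.22). ENTPD1, CD39, which breaks down extracellular ATP, stood at 0.341 of the Con level (0.179 to 0.636). PALMD, palmdelphin, stood at 0.322 (0.166 to 0.607), and CCDC88A, girdin, an actin-binding protein, at 0.266 (0.130 to 0.519). NCEH1, RELL1, ASTN2 and PAPOLG were the other genes, at 0.297 to 0.330 of the Con level. Apart from PALMD and NCEH1, each of the 8 had a sinusoidal ratio whose interval included 1.

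In NASH over Con, ADAM12, a membrane metalloprotease, had 9.57 CPM in NASH-T members, 315 CPM in NASH members and 11.6 CPM in Con members, 27.2-fold higher in NASH than in Con (7.11 to 231). Its UMIs lay in 11 of the 79 NASH members, and the sinusoidal sets, with 191 CPM in NASH-T, 468 CPM in NASH and 385 CPM in Con, had a NASH over Con ratio of 1.22 (1.03 to 1.44). JUN, another AP-1 subunit, had 195 CPM in NASH-T members, 221 CPM in NASH members and 63.8 CPM in Con members, 3.47-fold higher in NASH than in Con (1.71 to 7.61). CYP26B1, which degrades retinoic acid, had 28.7 CPM in NASH-T members, 221 CPM in NASH members and 52.2 CPM in Con members. A single NASH barcode held 21 of its 33 UMIs, and without the top barcode of each library the NASH over Con ratio was 2.05 (0.743 to 6.14), against 4.24 with it. SPIDR, METTL25, TBCD, KCNMB4 and GAPVD1 were the others, with ratios from 2.89 to 4.05. ACKR1 was 2.59-fold higher in NASH than in Con (1.59 to 4.33), but 1.01-fold (0.519 to 1.94) without the 5 deepest members of each library.

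The genes lower in NASH than in Con included guidance and peptide genes. NTN1, netrin-1, had 166 CPM in NASH-T members, 40.2 CPM in NASH members and 197 CPM in Con members, and the NASH level was 0.204 of that of Con (0.0700 to 0.492), or 0.528 (0.168 to 1.44) in HMCN1-positive members. NTS, neurotensin, a peptide also known from lymphatic lining, had 201 CPM in NASH-T members, 40.2 CPM in NASH members and 180 CPM in Con members. It was seen in 13 NASH-T members, 3 NASH members and 6 Con members, so a small number of barcodes carried it in each library. BMP6 stood at 0.263 of the Con level (0.118 to 0.530) and HDAC9, a class IIa histone deacetylase, at 0.265 (0.137 to 0.480). CCDC88A, SPECC1, PALMD and WDR20 were the other genes, at 0.239 to 0.289 of the Con level.

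In NASH-T over NASH, FN1 had 954 CPM in NASH-T members and 194 CPM in NASH members, with 597 CPM in Con members, and was 4.91-fold higher in NASH-T than in NASH (3.35 to 7.45). In the sinusoidal sets the FN1 ratio of NASH-T over NASH was 0.760 (0.582 to 0.996). Hepatocyte-type barcodes, with at least 10 UMIs of CPS1 and ABCB11, also held FN1, at 645.5 CPM in NASH-T, 525 CPM in NASH and 663 CPM in Con, and their part was not tested. NTN1 was 4.12-fold higher in NASH-T than in NASH (1.77 to 11.7) and NTS 5.00-fold higher (2.17 to 14.1). ADGRD1, an adhesion receptor, was 16.7-fold higher (2.80 to 676), from 7 barcodes of NASH-T and 1 of NASH. SNAP91, KHDRBS2, PCDH7 and SPECC1 were the others, with ratios from 3.65 to 9.52. On the lower side, ADAM12 stood at 0.0304 of the NASH level (0.00605 to 0.0943), CYP26B1 at 0.130 (0.0546 to 0.277, and 0.393, from 0.132 to 1.15, in HMCN1-positive members) and TIE1, an orphan receptor that modulates angiopoietin signalling, at 0.317 (0.149 to 0.654). TIE1 had 44.7 CPM in NASH-T members, 141 CPM in NASH members and 52.2 CPM in Con members. Its NASH-T over NASH interval included 1 in HMCN1-positive members (0.189 to 1.04). ADGRF5, an endothelial adhesion receptor, had 105 CPM in NASH-T members, 302 CPM in NASH members and 226 CPM in Con members, and OTUD7B, CDC27, CRY1 and LATS1 stood at 0.290 to 0.344 of the NASH level.

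**Figure D5:**
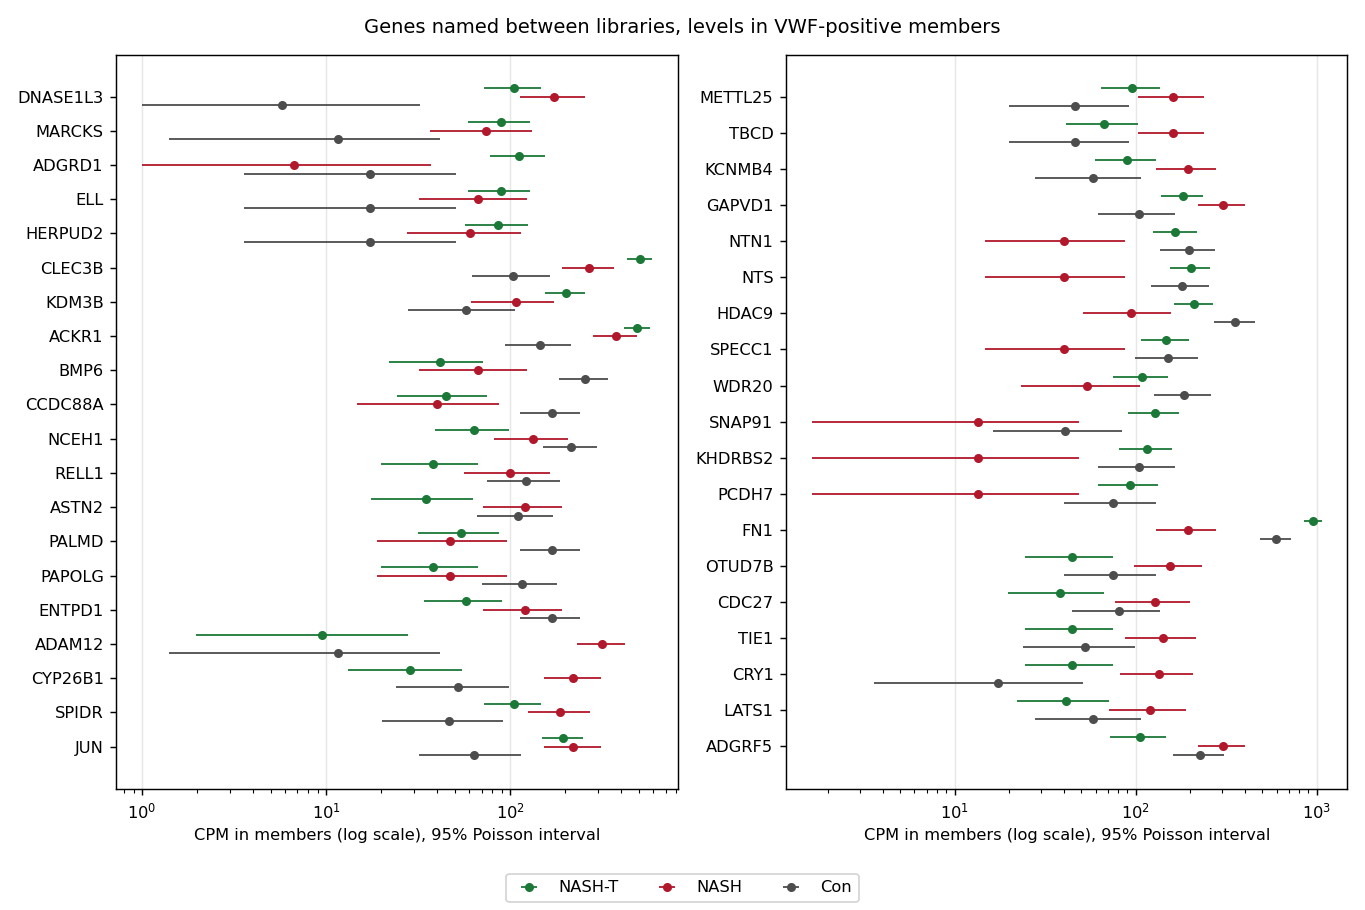
Levels in CPM (log scale) of the 39 genes named between libraries, with Poisson intervals, in VWF-positive members of the NASH-T, NASH and Con libraries. ADAM12 is near 10 CPM in NASH-T and Con and at 315 CPM in NASH, while BMP6 is at 41.5 CPM in NASH-T, 67.0 CPM in NASH and 255 CPM in Con.

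At 1.5-fold, the share of all measured genes that were higher or lower was 6.92% and 6.13% for NASH-T over Con, 5.6% and 5.86% for NASH over Con, and 6.58% and 5.67% for NASH-T over NASH. The median log2 ratio of all measured genes was 0.00020 for NASH-T over Con, 0.0029 for NASH over Con and 0.0063 for NASH-T over NASH. Lists whose counts lay near these shares carry no statement about the list.

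Immediate early and heat shock genes, which stress and dissociation can induce, were counted mainly as higher. For NASH-T over Con 4 of 11 were higher (36.4%), none lower, with a median log2 ratio of 0.86. They were JUN, NR4A3, ZFP36 and HSPA5. For NASH over Con 2 of 10 were higher, JUN and the chaperone HSPA5, with a median of 0.33, and for NASH-T over NASH 1 of 11 was higher, with a median of 0.16. NR4A3, a nuclear receptor, had 27 UMIs in NASH-T members, 9 in NASH members and 0 in Con members. With 3 counts put in place of 0, it was 4.95-fold higher in NASH-T than in Con. ZFP36, which destabilises cytokine messages, had 210 CPM in NASH-T members, 161 CPM in NASH members and 87.0 CPM in Con members. HSPA5 had 134 CPM in NASH-T members, 134 CPM in NASH members and 58.0 CPM in Con members, so both HRDS libraries stood above Con. In HMCN1-positive members alone, NASH-T over Con intervals included 1 for JUN (0.992 to 4.63), ZFP36 (0.947 to 3.89) and HSPA5 (0.617 to 3.84). The HSPA5 interval for NASH over Con included 1 when thinned (0.635 to 36.0). It also did so without the 5 deepest members of each library (0.688 to 5.16). Over all non-members JUN had 77.1 CPM in NASH-T, 31.5 CPM in NASH and 34.7 CPM in Con, and handling cannot be told apart from diet.

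BMP and TGF-beta genes had counted members in each pair. For NASH-T over Con 4 of 24 were higher, BMPR2, ENG, ID1 and ID3, and 2 were lower, BMP6 and SMAD6, with a median of -0.14. BMPR2, a type II BMP receptor, had 2278 CPM in NASH-T members, 1904 CPM in NASH members and 1427 CPM in Con members, 1.60-fold higher in NASH-T than in Con (1.38 to 1.85). ID1, a transcriptional target of BMP signalling, had 207 CPM in NASH-T members, 93.9 CPM in NASH members and 81.2 CPM in Con members, 2.55-fold higher in NASH-T than in Con (1.42 to 4.93). ID3 had 204 CPM in NASH-T members, 154 CPM in NASH members and 81.2 CPM in Con members. In HMCN1-positive members alone the NASH-T over Con ratio was 1.06 (0.659 to 1.75) for ENG and 1.62 (0.733 to 3.95) for ID3. SMAD6, the inhibitor, had 246 CPM in NASH-T members, 369 CPM in NASH members and 464 CPM in Con members. For NASH-T over NASH, of 24 measured, ID1 and the rule gene BMPER were higher and SMAD6 was lower. BMP6, ID3 and BMPR2 were not counted in that pair. When thinned to 1000 UMIs, the SMAD6 interval included 1 for NASH-T over Con (0.378 to 1.17) and for NASH-T over NASH (0.341 to 1.08). For NASH over Con none of 23 was higher and 4 were lower, BMP6, TLL1, BMPER and SMAD3, of which TLL1 and BMPER belong to the rule.

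Matrix genes differed in NASH. For NASH over Con, the basement membrane and elastic fibre list had 7 measured genes, of which 3 were lower (COL4A2, HMCN1 and FN1) and 2 higher (LAMC1 and FBN1). Its median log2 ratio was -0.59. FN1 had 0.326 of the Con level in NASH (0.208 to 0.496), or 0.513 (0.320 to 0.802) without the 5 deepest members of each library. COL4A2 had 31 UMIs in NASH-T members, 7 in NASH members and 20 in Con members, and its NASH over Con interval included 1 without doublet calls (0.151 to 1.04). LAMC1, a laminin chain, was 2.21-fold higher in NASH than in Con (1.02 to 5.07; 0.766 to 4.19 without doublet calls) and FBN1, fibrillin-1, 1.60-fold higher (1.21 to 2.11). COL4A1, a chain of the same collagen as COL4A2, had 26 UMIs in NASH-T members, 13 in NASH members and 2 in Con members, so the chains did not follow each other.

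Identity and vessel lists held a small number of counted genes. Among 19 pan-endothelial genes, KDR, SOX18, ENG and RAMP2 were higher and EGFL7 lower in NASH-T than in Con, and TIE1 and CD34 were higher in NASH than in Con. The TIE1 interval for NASH over Con included 1 when thinned (0.835 to 9.57) and in HMCN1-positive members (0.910 to 7.26). It also did so without the top barcode of each library (0.937 to 6.27). In HMCN1-positive members alone the NASH-T over Con ratio was 0.909 for RAMP2 (0.367 to 2.38), 1.06 for ENG, 1.69 for KDR (0.989 to 3.02) and 1.84 for SOX18 (0.758 to 5.09). KDR, the main VEGF receptor and a gene of the rule, had 364 CPM in NASH-T members, 228 CPM in NASH members and 180 CPM in Con members. CD34, a sialomucin, had 303 CPM in NASH-T members, 483 CPM in NASH members and 220 CPM in Con members. Among 10 venous genes ADGRG6, TSHZ2 and MCTP1 were lower and ACKR1 higher in NASH than in Con. TSHZ2, a zinc-finger protein, had 297 CPM in NASH-T members, 355 CPM in NASH members and 568 CPM in Con members, but in HMCN1-positive members alone its ratio was 1.13 for NASH-T over Con and 1.40 for NASH over Con. Among 5 arterial genes none was counted for NASH-T over Con, and VEGFC was higher and BMX lower for NASH over Con. In HMCN1-positive members both intervals included 1, from 0.969 to 1.59 for VEGFC and from 0.305 to 1.04 for BMX. Both also did so when thinned, from 0.920 to 1.72 for VEGFC and from 0.196 to 1.10 for BMX.

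Growth factor and receptor lists also had counted genes. For NASH over Con, 3 of 10 VEGF and angiopoietin genes were higher (VEGFC, TIE1 and PIK3R3) and none lower, and 3 of 11 vessel growth factor and vasoactive genes were higher (HGF, ADAMTS1 and EDNRB) and 1 lower (PDGFC, a platelet-derived growth factor). Alternatives in which the VEGFC and TIE1 intervals included 1 are given above. EDNRB had 313 CPM in NASH-T members, 516 CPM in NASH members and 284 CPM in Con members, 1.82-fold higher in NASH than in Con (1.25 to 2.66). HGF, hepatocyte growth factor, had 43 of its 45 NASH UMIs in 1 barcode. For NASH-T over Con, 3 of 15 of the same list were lower, HGF, FGF2 and PDE3A, and 2 of 7 Weibel-Palade body genes were lower, MYRIP among them. The FGF2 ratio of 0.413 became 0.934 (0.464 to 1.95) with a VWF, TLL1 and MECOM sum of at least 5. Without the top barcode of each library the FGF2 ratio was 0.787 (0.378 to 1.68). MYRIP had 175 CPM in NASH-T members, 148 CPM in NASH members and 284 CPM in Con members, and its NASH-T over Con ratio was 0.617, with an interval that included 1 when thinned (0.268 to 1.10).

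Of 12 Wnt genes none was counted for NASH-T over Con or NASH over Con. Of the measured interferon-stimulated genes none was counted for NASH-T over Con or NASH-T over NASH, and HERC5, a ligase for the ubiquitin-like protein ISG15, was the only one of 8 higher in NASH than in Con, with 28 UMIs in NASH members and 15 in Con members. No cycling gene reached 20 UMIs over both libraries in any pair. Hepatocyte genes had 1 of 11 higher for NASH-T over Con, the rule gene CPS1. Of B and plasma cell markers, JCHAIN had 18 UMIs in NASH-T members, 2 in NASH members and 1 in Con members, and over all non-members it had 73.8 CPM in NASH-T, 14.8 CPM in NASH and 17.9 CPM in Con. Its level in members, 57.4 CPM in NASH-T, was thus below that over the rest of its library.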

How the data were processed

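UMI counts per gene and barcode of 3 libraries were used as the authors deposited them; they were made with Cell Ranger 7.0.0, per the submitters' processing notes, and the genome build is not given in the sources used here. All deposited barcodes were kept, and no sequence is printed. Members and a sinusoidal set were taken by UMI thresholds in Python 3.11.15 with numpy 2.4.6, scipy 1.17.1 and pandas 2.3.3. Doublets were called with scanpy 1.11.5 (Scrublet, expected rate 0.06) and removed only in an alternative. UMIs were summed per library, scaled to CPM with exact Poisson intervals, and compared by ratios with exact conditional binomial intervals; shares have exact Clopper-Pearson intervals. The steps were tested on simulated Poisson counts without extra spread between barcodes, so calls carried by a single barcode were not covered. Of 27271 genes, 9958 carry an identifier only and were not named. The list medians are of log2 ratios with 0 UMIs set to 3 counts. Genes named against the sinusoidal set are the 12 per direction with the largest smallest ratio, at least 30 UMIs over both sets in each library and a UMI in 10% of the higher set. Rule, ribosomal, mitochondrial, haemoglobin, immunoglobulin and T cell receptor genes could not be named so, and 2 genes are not reported here. From each list, called genes and up to 4 with the largest ratio were eligible, and others were named for a known role after their values were seen. The members, gene lists and comparisons were chosen with earlier results of these data known. Alternatives covered thinning, depth, doublets, count minimum, fold, TMM scaling, stricter member rules and leaving out single barcodes.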

Additional observations from a re-analysis of the deposited data

Results flagged for a closer look

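For 9 gene ratios the members and the sinusoidal set of the same libraries stood on opposite sides of 1, each with its interval excluding 1. With 1 library a group, the difference between the cell sets was not tested in any of them.

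Matrix genes gave 2 of these. FN1 was 1.60-fold higher in NASH-T than in Con members (1.27 to 2.02), while its ratio was 0.416 in the sinusoidal sets (0.321 to 0.540). When thinned to 1000 UMIs, the members' interval for FN1 included 1 (0.956 to 1.97). COL4A2, a chain of basement membrane collagen, stood at 0.405 of the Con level in NASH members (0.145 to 0.996) and at 1.53 in the sinusoidal sets (1.13 to 2.09). The members' interval for COL4A2 included 1 without doublet calls (0.151 to 1.04), without the 5 deepest members of each library (0.147 to 1.23) and without its top barcodes (0.139 to 1.17).

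Guidance and adhesion genes gave 4. NTN1 stood at 0.204 of the Con level in NASH members (0.0700 to 0.492) against a ratio of 3.30 in the sinusoidal sets (1.60 to 7.65), and for NASH-T over NASH at 4.12 in members (1.77 to 11.7) against 0.432 in the sinusoidal sets (0.272 to 0.679). In HMCN1-positive members its intervals included 1, with ratios of 0.528 for NASH over Con and 1.92 for NASH-T over NASH. It was seen in 20 NASH-T members, 5 NASH members and 11 Con members. CDH13, T-cadherin, was 2.64-fold higher in NASH-T than in Con members (1.5 to 4.96), against 0.489 in the sinusoidal sets (0.336 to 0.716), and was seen in 14 NASH-T and 8 Con members; hepatocyte-type barcodes held 417 CPM in NASH-T and 566 CPM in Con, and their part was not tested. ADGRG6 was 1.58-fold higher in NASH-T than in NASH members (1.30 to 1.93), against 0.613 in the sinusoidal sets (0.483 to 0.776). When thinned to 1000 UMIs, the members' intervals of these ratios included 1 for CDH13 (0.757 to 4.58) and for ADGRG6 (0.964 to 1.83).

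The remaining genes were NPPC, MYRIP and EPB41L4A. NPPC stood at 0.666 of the NASH level in NASH-T members (0.521 to 0.854), against a ratio of 14.4 in the sinusoidal sets (2.36 to 591), where it had 15.3 CPM in NASH-T and 1.06 CPM in NASH. MYRIP stood at 0.519 of the Con level in NASH members (0.299 to 0.875; 0.336 to 1.03 without the 5 deepest members), against 2.02 in the sinusoidal sets (1.01 to 4.41). EPB41L4A, a cytoskeletal adaptor, stood at 0.650 of the NASH level in NASH-T members (0.482 to 0.881), against 2.26 in the sinusoidal sets (1.18 to 4.67).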

How the results depend on the processing

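No paired analysis was possible because each group has 1 library. Members' shares moved beyond their intervals under 3 settings: thinning to 1000 UMIs (1.21% in NASH-T), members with STAB2 and BMPER at 0 only (0.832% in NASH-T, 0.676% in NASH, 0.668% in Con) and HMCN1-positive members only (0.960%, 0.584% and 0.842% in NASH-T, NASH and Con), each of which keeps fewer barcodes by construction. The last setting, leaving out the 5 deepest members and leaving out a gene's top barcode were chosen after seeing the data. Counts past 2-fold moved by over 1.5 times as follows, given as higher and lower. Thinned, they were 120 and 67 for NASH-T over Con, 40 and 69 for NASH over Con, 118 and 48 for NASH-T over NASH, and 110 and 153 against the sinusoidal set. With at least 50 UMIs they were 110 and 39, 29 and 44, and 102 and 30 for the same pairs, with 119 higher against the sinusoidal set. Both settings leave fewer UMIs or genes. With at least 1 UMI, 295 were lower for NASH-T over Con, 219 and 241 were counted for NASH over Con, and 240 were lower for NASH-T over NASH. At 1.5-fold, 263 were lower for NASH-T over Con, 188 and 197 were counted for NASH over Con, and 236 were lower for NASH-T over NASH. Without hepatocyte-type genes in the totals, 186 were lower than in the sinusoidal set.

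Of 1097 alternative values of 161 gene ratios, 1019 stayed on the same side of 1 and within the interval, 63 moved outside it and 15 changed side. For HGF, 1 NASH barcode held 43 of the 45 UMIs of NASH. Its NASH-T over NASH ratio was 4.41 with a VWF, TLL1 and MECOM sum of at least 5, 4.87 in HMCN1-positive members, 4.86 without the deepest members and 2.96 without the top barcode. NASH over Con was 0.553 thinned, 0.0915 with the sum of at least 5, 0.0841 without the deepest members and 0.142 without the top barcode, and NASH-T over Con was 6.43 in HMCN1-positive members. In HMCN1-positive members F2R was 1.11 for NASH-T over NASH (1.05 without the deepest members), RAMP2 0.909 and TSHZ2 1.13 for NASH-T over Con, and TSHZ2 1.40 for NASH over Con. NOTCH2 was 1.28 for NASH-T over Con thinned. The cause was not tested beyond the barcode named. TMM scaling shifted log2 ratios by 0.058, -0.004 and 0.061 for NASH-T over Con, NASH over Con and NASH-T over NASH and, like doublet removal, moved none of the 161. Of 137 ratios whose interval excluded 1, the interval included it for 55 when thinned, 50 in HMCN1-positive members (131 computed), 17 without the top barcode, 16 without the deepest members, 10 with the sum of at least 5, 3 with TMM scaling and 3 without doublet calls. Depth limits the genes measured, since members of NASH summed to 149141 UMIs.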
